A study of Mus musculus with 8 samples.

Results

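Contactins and contactin-associated proteins are neuronal adhesion molecules, and 9 of their genes (Cntn1 to Cntn6, Cntnap1, Cntnap2 and Cntnap4) were taken by gene symbol from the 19201 genes measured in the hippocampus of wild-type and Mbd2-/- mice. All 9 passed the filter on low values and were tested. Total RNA depleted of ribosomal RNA was sequenced as paired ends of 100 bases from 8 libraries, 4 of wild-type C57BL/6 mice, labelled control, and 4 of Mbd2-/- mice, and the columns K1 to K4 were read as the Mbd2-/- libraries because the series has no other group beside the controls. Each library pooled the bilateral hippocampi of 2 mice aged 10 to 12 weeks, which were littermates bred from heterozygous parents. The study grouped hippocampi of males and females, with their numbers balanced between groups. The Mbd2-/- line lacks Mbd2, a protein that binds methylated DNA, in every cell from conception, so that neither a cell type nor an age at which the loss acts can be separated in these animals, and p-values measure the spread between pools and not between single mice.

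Contactins are immunoglobulin-like adhesion proteins that are tied to the outer leaflet of the membrane by a lipid anchor, and contactin-associated proteins, also called Caspr proteins, are transmembrane relatives of the neurexins. Both families work together on myelinated axons. There Cntn1 and Cntnap1 form the axonal side of the junction between axon and myelin loops at the paranode, and Cntn2 and Cntnap2 hold voltage-gated potassium channels beside it in the juxtaparanode. The other contactins act mainly in the guidance, sorting and synapse formation of neurons, Cntnap4 has been described at inhibitory synapses, and Cntn4, Cntn6 and Cntnap2 are known as candidate genes in autism research.

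Mbd2 recognises methylated CpG, and the starts of 8 of the members are therefore described by their CpG content. In the 300 bases around the start of the longest protein-coding transcript (250 before and 50 after, mm9 assembly with GENCODE annotation), the dinucleotide CG, which reads the same on both strands, occurred 26 times in Cntn5, 14 in Cntnap2, 13 in Cntn2, 9 in Cntn1 and in Cntnap1, 6 in Cntnap4, 2 in Cntn6 and 0 in Cntn3. The same window of 22024 protein-coding genes held a median of 12, with quartiles of 4 and 24. As many CG or fewer were found in 80.1% of these windows for Cntn5, 54.7% for Cntnap2, 19.1% for Cntn6 and 4.8% for Cntn3. Methylation was not analysed here, so that these counts describe the letters only. The 250 bases before the start are printed 5′ to 3′ on the strand of the gene for Cntn6 (chr6:104442666-104442915, plus strand) and Cntnap2 (chr6:45009810-45010059, plus strand), which were lower in Mbd2-/- hippocampus under every setting, and for Cntn3 (chr6:102414662-102414911, minus strand), their relative on the same chromosome whose genotypes overlapped. CG is in capitals.
Cntn6: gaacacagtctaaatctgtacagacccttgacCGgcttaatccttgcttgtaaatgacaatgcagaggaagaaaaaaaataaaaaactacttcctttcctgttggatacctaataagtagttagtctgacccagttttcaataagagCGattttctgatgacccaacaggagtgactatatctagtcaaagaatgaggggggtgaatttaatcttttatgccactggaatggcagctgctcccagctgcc
Cntnap2: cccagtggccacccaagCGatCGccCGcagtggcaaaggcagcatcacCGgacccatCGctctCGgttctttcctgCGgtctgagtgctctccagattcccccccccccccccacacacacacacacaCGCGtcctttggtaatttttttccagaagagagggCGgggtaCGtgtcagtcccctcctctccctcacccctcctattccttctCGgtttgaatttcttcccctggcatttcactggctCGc
Cntn3: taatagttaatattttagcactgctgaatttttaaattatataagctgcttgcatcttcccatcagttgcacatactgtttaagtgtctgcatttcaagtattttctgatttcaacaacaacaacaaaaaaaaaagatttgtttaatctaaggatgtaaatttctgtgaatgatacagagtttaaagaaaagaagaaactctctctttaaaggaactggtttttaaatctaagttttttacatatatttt
The Cntnap2 sequence held 13 CG, that of Cntn6 2 and that of Cntn3 0. Whether the CG content of the starts goes with the changes of the members was not tested.

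Each library held between 8087750 and 23790825 reads on genes, and the smallest member still had 54 reads in its shallowest library. One library, Mbd2-/- replicate 4, stood apart from its group. Across genes, the Spearman correlation of each library's log2 ratio to the wild-type mean with transcript length was -0.49, -0.43 and -0.48 in Mbd2-/- replicates 1 to 3, -0.10 in replicate 4 and between -0.06 and 0.06 in the wild-type libraries. The wild-type libraries are themselves part of that mean, which draws their values towards 0. Members have transcripts of 3702 to 9535 bases. For the members and their binding partners, results are given without replicate 4 and with the length trend removed where these change a call. For cell type markers, counts are given with the length trend removed but not without replicate 4. Mbd2, the targeted gene, measured 295, 363, 371 and 354 normalized counts in the wild-type libraries and 244, 240, 340 and 217 in the Mbd2-/- libraries (346 ± 34.4 and 260 ± 54.3, SD, n = 4 each). Replicate 3 of the libraries labelled Mbd2-/- lay within the wild-type range, and the exact two-sided permutation test gave a p of 0.0571, where 0.0286 is the smallest that 4 against 4 can give. Limma called the gene lower (log2 fold change -0.43 ± 0.117, SE, adjusted p = 0.0174), a call that was lost when wild-type replicate 3, Mbd2-/- replicate 1 or Mbd2-/- replicate 2 was left out (adjusted p = 0.0624, 0.0539 and 0.0576). The study notes that exon 1 is intact in this line and still gives reads, so that the gene's total is a weak check of the labels. Without that replicate 3, the number of members called lower was 5, as with all libraries, where 9.52% of tested genes were called lower.

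Every member was present in the hippocampus, over a 37.6-fold range of level. Levels between genes were compared as normalized counts per kilobase of the longest transcript, a description with no test. Cntn1 stood highest in wild-type hippocampus at 1190 ± 26.5 (SD, n = 4), above 96.4% of the 14046 tested genes with an annotated length, and made 45.4% of the summed level of the 9 members. Cntnap1, its partner at the paranode, followed at 703 ± 11.7, a level above that of 92.6% of these genes. The juxtaparanodal pair came next, with Cntn2 at 261 ± 17.5 and Cntnap2 at 215 ± 4.35. The remaining members were much lower, Cntnap4 at 75.3 ± 3.7, Cntn4 at 64.8 ± 3.66, Cntn3 at 47.4 ± 4.92, Cntn5 at 32.4 ± 2.62 and Cntn6 at 31.7 ± 3.36. Among these wild-type neighbours in order, the ranges over libraries overlapped only for Cntn5 (30.4 to 36.1) and Cntn6 (28.1 to 35.6). The order of means was the same in Mbd2-/- hippocampus, but there the ranges of Cntn4 (40.6 to 48.9) and Cntn3 (37 to 50.8) overlapped, as did those of Cntn5 and Cntn6. Cntn4 made 2.47% of the members' level in wild-type and 1.92% in Mbd2-/- hippocampus.

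**Figure D1:**
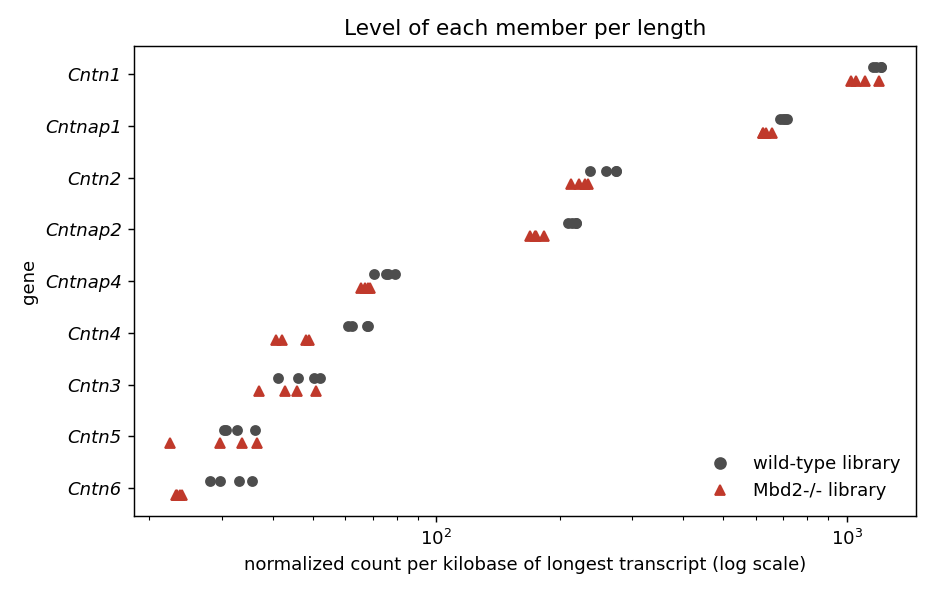
Level of each of the 9 members in each library, as normalized counts per kilobase of the longest transcript on a log scale, with grey circles for the 4 wild-type and red triangles for the 4 Mbd2-/- libraries. Cntn1 and Cntnap1 lie far to the right, with wild-type means of 1190 and 703, and Cntn5 and Cntn6 share the lowest range.

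All 9 members had a negative log2 fold change in Mbd2-/- hippocampus, and 5 of the 9 were called lower and 0 higher (limma on log2(normalized count + 1), Benjamini-Hochberg adjusted p under 0.05 over 14504 genes). Over all tested genes, 10.0% were called lower and 12.0% higher. The called members were Cntn4, Cntn6, Cntnap2, Cntn2 and Cntnap1. In 6 of the 9, the 5 called and Cntnap4, each Mbd2-/- library lay below each wild-type library, against 11.5% of tested genes, and 0 of the 9 lay above, against 12.1%. Their median log2 fold change was -0.16, and that of all tested genes was -9.1e-05. No member's fold change turned positive under any of the 11 alternatives that kept the 8 libraries, other scalings included. No member had an unadjusted p under 0.05 in the upward direction in limma, and DESeq2, edgeR and limma-voom each called 0 higher. In whole hippocampus, fewer cells of a type and less RNA per cell cannot be told apart.

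Transcript length was examined beside these calls. Among the 5193 tested genes whose longest transcript falls within the members' range of lengths, 19.3% were called lower. After a smooth trend on transcript length was removed from each library, 3 of the 9 members (Cntn4, Cntn6 and Cntnap2) were still called lower, against 6.75% of the 14046 tested genes with an annotated length, and 0 higher, against 7.94%, and the members' median was -0.07. The count also turned on single libraries. It was 3 of the 9 without wild-type replicate 1, wild-type replicate 3 or Mbd2-/- replicate 1, where 5.99%, 6.07% and 6.35% of tested genes were called lower, and 6 of the 9 without Mbd2-/- replicate 4, where the share was 17.7%.

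Cntn4, which acts in axon guidance and target selection, had the largest change of the 9. Its normalized counts were 321, 359, 328 and 356 in wild-type hippocampus and 253, 221, 214 and 258 in Mbd2-/- hippocampus. The lowest wild-type library stood well above the highest Mbd2-/- library, and the mean fell by 30.7%, from 341 ± 19.3 to 236 ± 22.1 (log2 fold change -0.53 ± 0.082, SE, limma adjusted p = 0.000451). The gene was called under all 11 alternatives that kept the 8 libraries, with log2 fold changes from -0.54 to -0.45, and after the loss of any single library. It spans 1022 kb of chromosome 6, the longest of the members after Cntnap2 and Cntn5.

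Cntn6, a ligand of Notch signalling that also acts in synapse formation, was the member with the lowest level and showed the second largest change. The wild-type libraries measured 132, 123, 110 and 104 normalized counts and the Mbd2-/- libraries 88.1, 88.7, 86.1 and 86.5. The Mbd2-/- libraries were almost equal, with a coefficient of variation of 1.45%, less than the 9.55% that counting alone gives on average at these depths, while the wild-type libraries varied by 10.6%. The mean was 117 ± 12.4 in wild-type and 87.3 ± 1.26 in Mbd2-/- hippocampus, a fall of 25% (log2 fold change -0.41 ± 0.106, SE, limma adjusted p = 0.0116). The gene was called in all 11 alternatives and after the loss of any single library, where the adjusted p reached 0.0451. Cntn6 lies at 104442784 to 104813400 of chromosome 6 (mm9) on the plus strand, in 371 kb.

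Cntnap2, the Caspr protein of the juxtaparanode, had the smallest adjusted p of the 9 after Cntn4. Its values were 1463, 1527, 1498 and 1527 in wild-type and 1276, 1217, 1179 and 1222 in Mbd2-/- hippocampus. Every Mbd2-/- library was below every wild-type library, and the mean fell by 18.6%, from 1504 ± 30.4 to 1224 ± 39.6 (log2 fold change -0.30 ± 0.051, SE, limma adjusted p = 0.000875). With the length trend removed, the log2 fold change was -0.18 (adjusted p = 0.0222). Its call held in all 11 alternatives and after the loss of any single library. Cntnap2 spans 2241 kb of chromosome 6 (45010060 to 47251368, plus strand), the longest of the 9 genes.

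Cntn2, the contactin that binds Cntnap2, was lower by 13.9%. The wild-type libraries held 2617, 2262, 2614 and 2470 normalized counts and the Mbd2-/- libraries 2025, 2230, 2200 and 2118, so that the lowest wild-type and the highest Mbd2-/- library were close without overlap. The means were 2491 ± 167 and 2143 ± 91.9 (log2 fold change -0.22 ± 0.057, SE, limma adjusted p = 0.0138). The call was lost when the length trend was removed (log2 fold change -0.07, adjusted p = 0.484) and without wild-type replicate 1, wild-type replicate 3 or Mbd2-/- replicate 1, with adjusted p of 0.059, 0.0583 and 0.0548. Cntn2 is compact, with 34 kb on chromosome 1 (134406002 to 134439517, minus strand), but has the longest transcript of the members.

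Cntnap1, the Caspr protein of the paranode, was lower by 9.6%, with coefficients of variation of 1.66% and 2.35% over the libraries of each genotype. It measured 3891, 3854, 3807 and 3744 in wild-type and 3450, 3574, 3408 and 3397 in Mbd2-/- hippocampus, with no overlap. The means were 3824 ± 63.5 and 3457 ± 81.1 (log2 fold change -0.15 ± 0.045, SE, limma adjusted p = 0.0285). This call was lost with the length trend removed (log2 fold change -0.06, adjusted p = 0.391), without any one of the 4 wild-type libraries (adjusted p from 0.0607 to 0.0859) and without Mbd2-/- replicate 1 (0.0651). At 101031837 to 101052038 of chromosome 11 on the plus strand, the gene overlaps Ccr10 and Plekhh3 on the other strand, and reads of the overlap may not be told apart because the strand setting is not given in the sources used here. Plekhh3 measured 202 ± 21.2 and 208 ± 37.4, and Ccr10 was below the filter.

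The remaining 4 members were not called. Cntn1, the contactin of the paranode, measured 6868, 6697, 6553 and 6862 in wild-type and 5959, 6297, 5805 and 6792 in Mbd2-/- hippocampus (log2 fold change -0.12, 95% confidence interval -0.23 to -0.01, limma adjusted p = 0.105). Only replicate 4 of the Mbd2-/- libraries reached the wild-type range, and without it the log2 fold change was -0.16 with an adjusted p of 0.00188. Cntnap4 measured 366, 385, 342 and 370 against 326, 335, 332 and 319, which do not overlap, but its change did not pass the threshold (log2 fold change -0.16, interval -0.30 to -0.02, adjusted p = 0.105). The groups of Cntn3 overlapped widely, with 213 to 270 normalized counts in wild-type and 192 to 263 in Mbd2-/- hippocampus (log2 fold change -0.11, interval -0.32 to 0.11, adjusted p = 0.483). Cntn5 ran from 127 to 151 in wild-type and from 94 to 153 in Mbd2-/- hippocampus (log2 fold change -0.10, interval -0.38 to 0.17, adjusted p = 0.607), and its direction turned without Mbd2-/- replicate 3, to 0.04. For Cntn3 and Cntn5 the intervals contain both a fall as large as that of Cntn2 and no change.

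**Figure D2:**
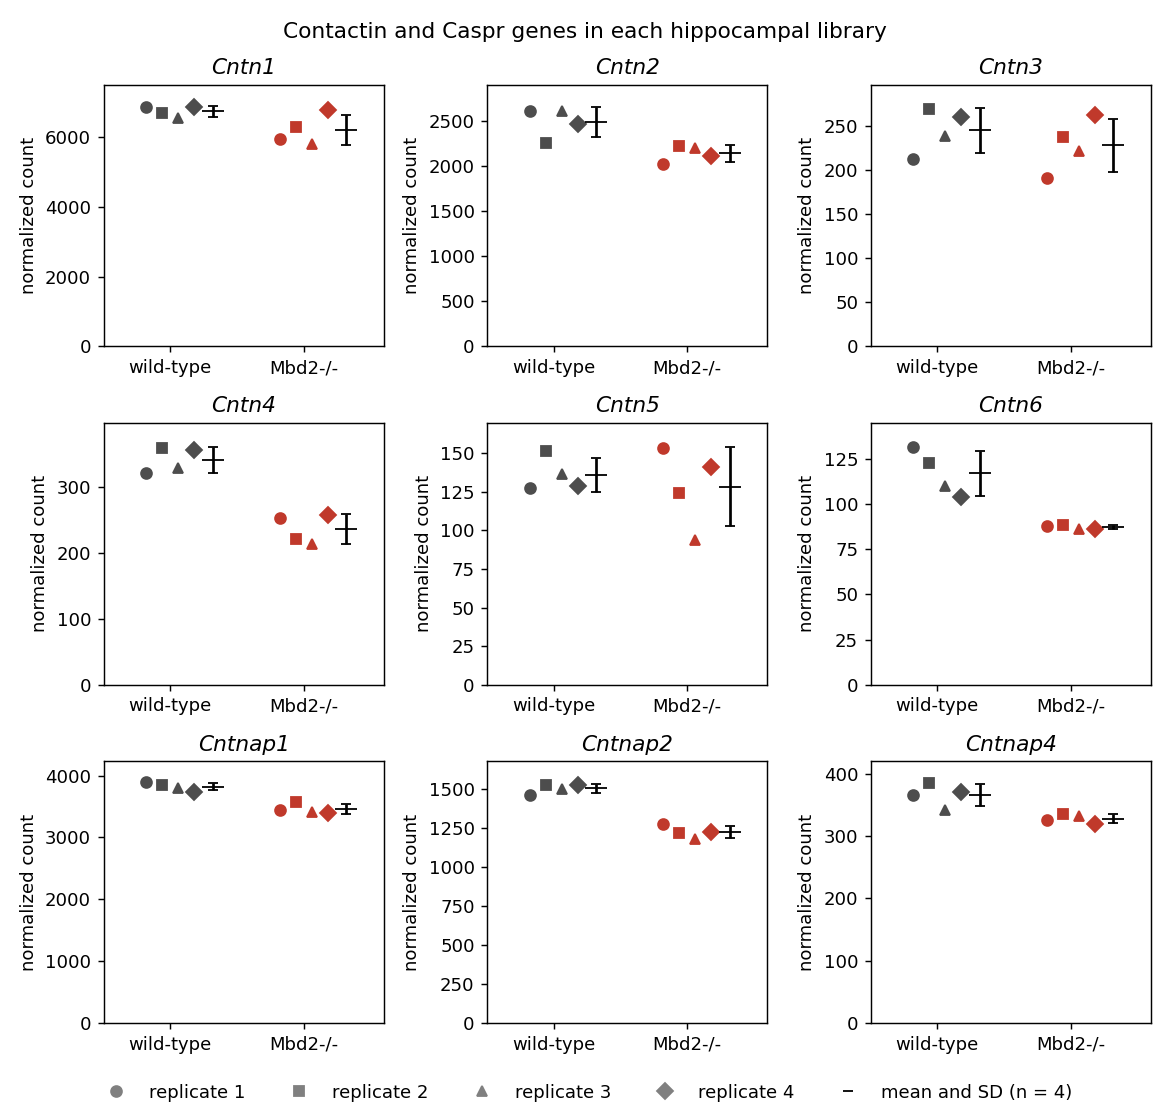
Normalized counts of each member in each library, with axes that start at 0, symbols for replicates 1 to 4, and the mean with its SD (n = 4) beside each genotype. In 6 of the 9 panels, all but those of Cntn1, Cntn3 and Cntn5, the red Mbd2-/- points lie below the grey wild-type points.

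The members lie in several places of the genome, but 4 of the 9, Cntn3, Cntn4, Cntn6 and Cntnap2, are on chromosome 6. Cntn3, Cntn6 and Cntn4 follow each other there, with Chl1 between Cntn3 and Cntn6 and gaps of 1046, 743 and 814 kb from Cntn3 to Chl1, Chl1 to Cntn6 and Cntn6 to Cntn4. Of the genes in this row, Chl1, Cntn6 and Cntn4 were called lower and Cntn3 was not. The difference between the changes of neighbours was not tested.

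The libraries were also compared over the members together. The median log2 ratio of the 9 members to the wild-type mean was -0.24, -0.13, -0.22 and -0.20 in Mbd2-/- replicates 1 to 4 and between -0.03 and 0.07 in the wild-type libraries, which are part of that mean. In Mbd2-/- replicates 1, 2, 3 and 4, 8, 9, 9 and 6 of the 9 members were below the wild-type mean. The 3 that were not in replicate 4 were Cntn1, Cntn3 and Cntn5, the members whose genotypes overlapped. The ratio within binding pairs differed little, with no test made. The log2 ratio of Cntn1 to Cntnap1 counts was 0.82 ± 0.04 in wild-type and 0.84 ± 0.11 in Mbd2-/- hippocampus, with the highest value in Mbd2-/- replicate 4, and that of Cntn2 to Cntnap2 was 0.73 ± 0.12 and 0.81 ± 0.10. In both pairs the ranges overlapped, and both partners of each pair had a negative log2 fold change.

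**Figure D3:**
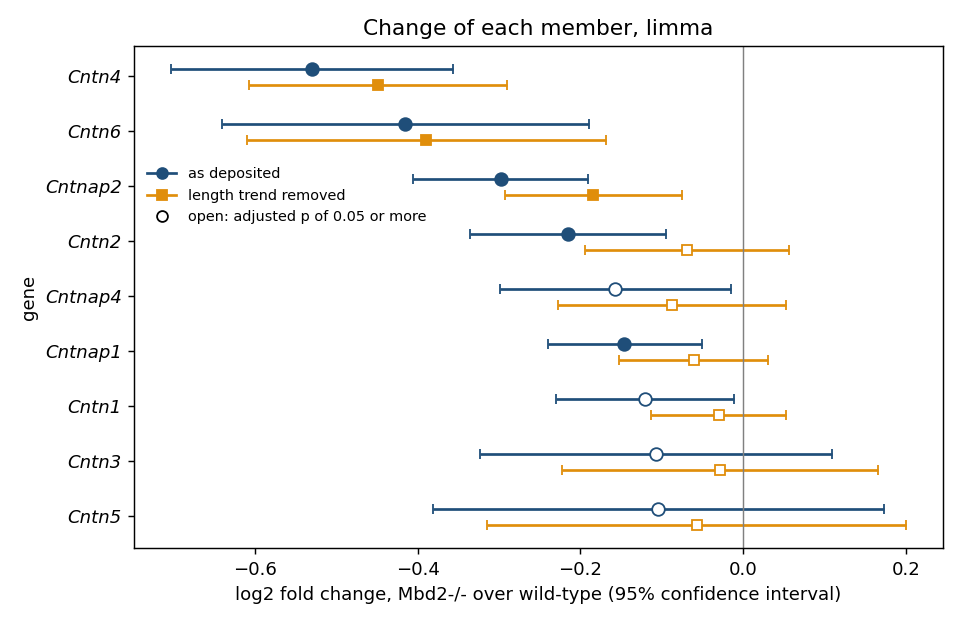
Log2 fold change of each member, Mbd2-/- over wild-type, with its 95% confidence interval from limma, as deposited (blue circles) and with the trend on transcript length removed (orange squares). Filled symbols have an adjusted p under 0.05, and they remain for Cntn4, Cntn6 and Cntnap2 when the trend is removed but not for Cntn2 and Cntnap1.

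The genes around the members were read from 4 lists of relatives and binding partners, 32 genes that were all tested. Of these, 14 were called lower and 3 higher, beside 10.0% and 12.0% of all tested genes, and the median of their log2 fold changes was -0.15. With the length trend removed, the calls were 8 lower and 5 higher, beside 6.75% and 7.94% of tested genes with a length, and without Mbd2-/- replicate 4 they were 19 and 3, beside 17.7% and 17.9%. Among the 4 other Cntnap genes, Cntnap5a was called lower (436 ± 16.2 against 372 ± 35.4 normalized counts, log2 fold change -0.23, adjusted p = 0.0366), a call that was lost without any one of the wild-type libraries and without Mbd2-/- replicate 1 or 2 (adjusted p from 0.0543 to 0.123), and with the length trend removed (-0.14, adjusted p = 0.175). Without Mbd2-/- replicate 4, Cntnap3 was called lower as well (-0.47, adjusted p = 0.0401). Cntnap5c measured 377 ± 14.3 and 343 ± 19.4 and was not called (adjusted p = 0.171).

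The L1 family, adhesion molecules that bind contactins and anchor to ankyrin, held 3 called genes of 4, all lower. Of all tested genes, 10.0% were called lower. L1cam, which acts in axon growth, measured 1234 ± 25.5 in wild-type and 915 ± 36 in Mbd2-/- hippocampus (log2 fold change -0.43, limma adjusted p = 9.46e-05). Nfasc, whose products assemble nodes of Ranvier and the paranode with Cntn1 and Cntnap1, measured 4013 ± 216 and 3044 ± 71.4 (-0.40, adjusted p = 0.000109), and it lies 22 kb from Cntn2 on chromosome 1. Chl1, the close homolog of L1, measured 3029 ± 158 and 2451 ± 325 (-0.31, adjusted p = 0.00896) with overlapping ranges. These 3 calls held with the length trend removed, at -0.35, -0.25 and -0.19, and after the loss of any single library. Nrcam, the most abundant of the family at 5978 ± 62.9 and 5522 ± 254, was not called (-0.12, adjusted p = 0.082), but was called without Mbd2-/- replicate 4 (-0.14, adjusted p = 0.00658).

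Of 10 phosphatase, matrix, App and receptor partners of contactins, 3 were called lower and 0 higher, beside 10.0% and 12.0% of all tested genes. Tnr, the matrix protein tenascin-R, measured 1995 ± 54.3 and 1639 ± 71.2 (log2 fold change -0.28, limma adjusted p = 0.00136). App, the amyloid precursor that binds contactins, measured 17000 ± 610 and 14990 ± 497 (-0.18, adjusted p = 0.00757). Adgrl1, a latrophilin receptor named Lphn1 in the older nomenclature, measured 9389 ± 390 and 8151 ± 206 (-0.20, adjusted p = 0.00488), and its call was lost with the length trend removed (adjusted p = 0.354). Aplp1, a homolog of App and the most abundant of these genes, overlapped between genotypes at 17860 ± 499 and 17160 ± 1940. Ptprz1, the phosphatase that is a receptor for Cntn1, and Tnc, the matrix protein tenascin-C, had positive log2 fold changes of 0.14 and 0.19 that did not pass (adjusted p = 0.0627 and 0.116) and were called higher with the length trend removed, at 0.27 and 0.30. Without Mbd2-/- replicate 4, Ptprg and Aplp2 were also called lower (adjusted p = 0.00132 and 0.0149), and without replicate 3 Ptprz1 was called higher (0.0109).

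The 14 scaffold and channel partners of Caspr proteins moved in both directions, 7 lower and 3 higher, beside 10.0% and 12.0% of tested genes. The juxtaparanodal channels Kcna1 (3499 ± 21.8 against 2955 ± 198) and Kcna2 (3122 ± 40.9 against 2561 ± 227) were lower, with log2 fold changes of -0.25 and -0.29 (limma adjusted p = 0.00372 and 0.0028). Adam22, which sits in the same channel complex, measured 3547 ± 61.7 and 2721 ± 267 (-0.39, adjusted p = 0.000494). The cytoskeletal proteins Epb41l3, Sptbn4, Sptan1 (20370 ± 663 against 18190 ± 569) and Ank2 were also lower, with log2 fold changes of -0.21, -0.27, -0.16 and -0.17 and adjusted p of 0.0056, 0.00487, 0.0117 and 0.0349. Higher were Epb41l2, a paralogue of Epb41l3 (1091 ± 28.3 against 1343 ± 94, 0.30), Kcnab2, the beta subunit of the channels (11080 ± 185 against 12720 ± 824, 0.20), and Dlg4, the scaffold PSD-95 (10780 ± 229 against 12150 ± 562, 0.17), with adjusted p of 0.00247, 0.00944 and 0.0131. Sptbn1, the most abundant of the list, was not called (20740 ± 440 against 19670 ± 1480, -0.08, adjusted p = 0.275) except without Mbd2-/- replicate 4 (-0.13, adjusted p = 0.00584). With the length trend removed, Epb41l3, Kcna2 and Adam22 stayed called lower and Epb41l2, Kcnab2 and Dlg4 higher, while Kcna1, Sptbn4, Sptan1 and Ank2 were not called. The call of Ank2 was lost without any one library (adjusted p from 0.0609 to 0.103) other than Mbd2-/- replicate 4, that of Sptan1 without wild-type replicate 1 (0.053), and that of Dlg4 without wild-type replicate 4 or Mbd2-/- replicate 2 (0.0526 and 0.0535).

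**Figure D4:**
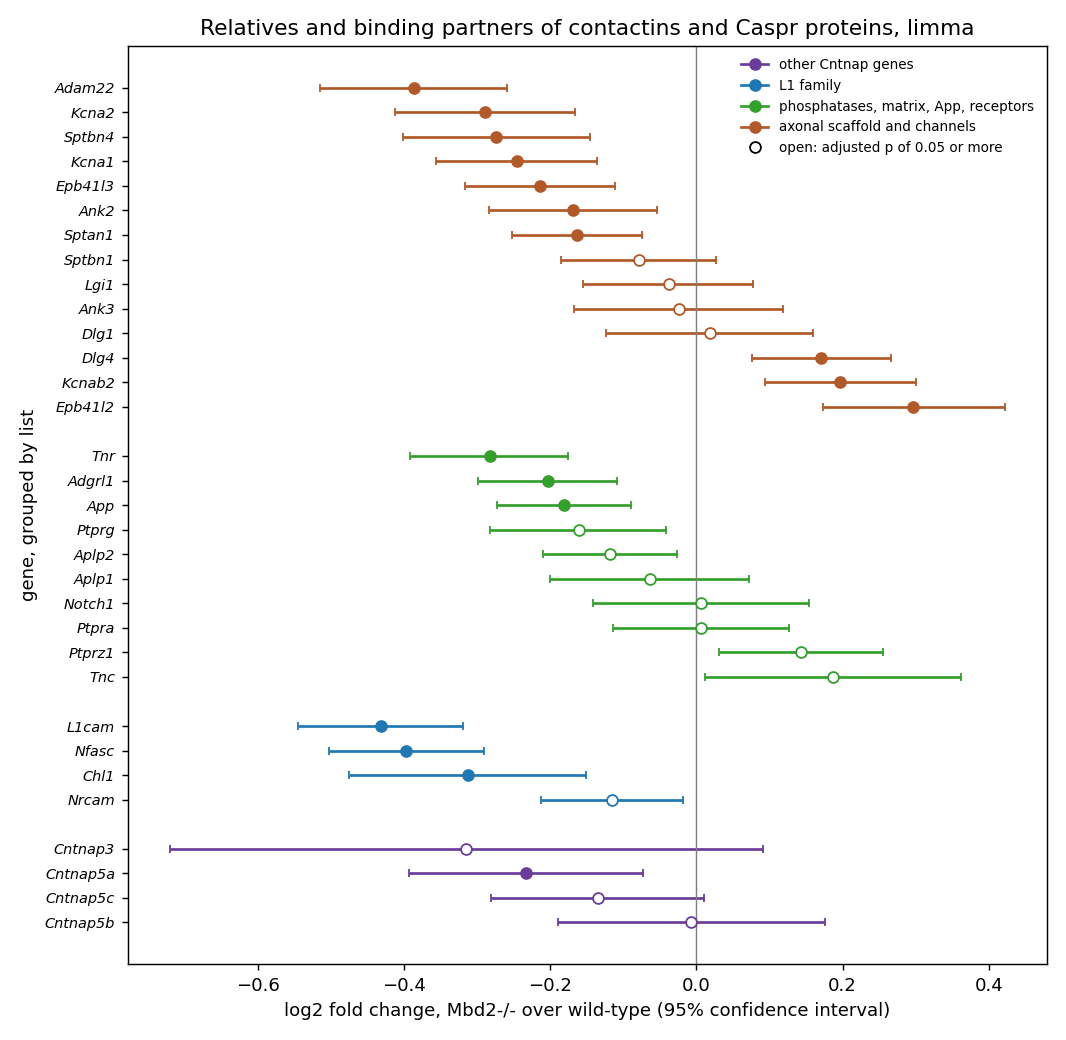
Log2 fold change, Mbd2-/- over wild-type, of 32 relatives and partners of the members with its 95% confidence interval from limma, coloured by list, filled where the adjusted p is under 0.05. L1cam, Nfasc and Adam22 lie farthest to the left among the called genes, and the called genes to the right of 0 are Dlg4, Kcnab2 and Epb41l2.

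For each called member, the genes whose profile over the 8 libraries was most like its own were found among 10630 genes with a mean of at least 100, by the root mean square distance of log2 values after each gene's own mean was subtracted. Cntn4, whose own profile had a root mean square of 0.282, was nearest to Rspo2 (0.0639), Tcf7l2 (0.0708) and Zfp369 (0.0805). Rspo2 is a secreted enhancer of Wnt signalling and Tcf7l2 a transcription factor of the same pathway that also marks thalamic neurons. Cntn6 (own value 0.227) was nearest to Fam185a, Zmat4 and Lgi2, at 0.0532, 0.0679 and 0.0694. Counting alone gives Cntn6 a coefficient of variation of 9.55%, so that which genes stand nearest may turn on counting. Cntnap2 (0.152) was nearest to Gnal, Pigt and Slc35e1, at 0.0289, 0.0299 and 0.0322. Cntn2 (0.129) was nearest to Rimkla, Pcnx3 and Slit3, at 0.0257, 0.033 and 0.0332, and Cntnap1 (0.077) to Abr, Abcf1 and Cttn, at 0.015, 0.0249 and 0.0256. The distances are smaller for members that varied less, and they carry no test. They include the difference between genotypes, so that a called member tends to lie near genes with a like fold change. For Cntn4, with a log2 fold change of -0.53, the nearest genes had -0.46, -0.49 and -0.51. Likeness within a genotype was not examined.

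Markers of cell types and neighbouring regions were examined beside these changes, and their counts stand beside the 10.0% of all tested genes called lower and 12.0% called higher. Of 12 thalamus markers, 9 were called lower and 0 higher, the median of the log2 fold changes was -0.45, and the summed level was 8469 to 8760 normalized counts in wild-type against 6494 to 7095 in Mbd2-/- libraries. Tcf7l2, which is among them, had a log2 fold change of -0.49 (limma adjusted p = 0.00077). Its nearness to Cntn4 in profile includes this difference between genotypes and is not a separate result. All 12 choroid plexus markers were called higher, with a median of 0.81 and sums of 14800 to 16040 against 31630 to 39110. Glial markers were called in the same direction. Of 10 genes each, 8 of myelinating oligodendrocytes (sums of 81610 to 83030 against 96240 to 102700), 7 of astrocytes (120600 to 123400 against 132800 to 157000) and 6 of microglia (5552 to 5794 against 6292 to 7082) were called higher and 0 lower. Of 10 genes each, 1 pan-neuronal marker was called lower and 1 higher (165400 to 170500 against 175700 to 180400, with a median log2 fold change of -0.05), 3 interneuron markers lower and 4 higher (10710 to 11130 against 9807 to 10950), and 3 hippocampal subfield markers lower and 1 higher (14990 to 15310 against 14490 to 15010). The pan-neuronal gene called higher, Camk2a, was also the most abundant of its list, with a mean of 74970 normalized counts and a log2 fold change of 0.27, and 6 of the 10 pan-neuronal markers had a negative log2 fold change. With the length trend removed, where 6.75% and 7.94% of tested genes with a length were called lower and higher, the calls were 4 and 2 for pan-neuronal, 3 and 1 for interneuron, 0 and 10 for astrocyte, 0 and 7 for oligodendrocyte, 0 and 4 for microglia and 1 and 1 for striatal markers, and the other 4 lists had as many calls as before. Endothelial markers gave 1 lower and 2 higher (3179 to 3326 against 3204 to 3425), and striatal markers 1 and 2 (2347 to 2509 against 2329 to 2572). No marker was at 0 in all libraries, and the hippocampal subfield markers were detected in both genotypes. The part of these markers in the changes of the members was not tested.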

How the data were processed

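Hippocampal RNA of 4 wild-type and 4 Mbd2-/- pools of 2 mice was measured. The submitters' processing notes name STAR, DESeq2 and mm9 with no versions, and the read counter and strand setting are not given in the sources used here. The deposited values are a signal, the normalized count, which the authors made by dividing the reads on a gene by the DESeq2 size factor of its library. The table's other columns (mean, log2 fold change, SE, statistic, p and adjusted p of the authors' comparison) were not used. The library columns K1 to K4 were assigned to Mbd2-/- because their letter is not in the labels and no other group exists.

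Reads were recovered from the smallest value above 0 in each library, and 100% of the values came out whole to within 0.01 of a read. Reads carry no molecular identifiers, so that counting errors cover counting only. The paper states that reads were deduplicated, and the effect of that step on levels and on the length trend was not tested. Because normalized counts were deposited, the 14504 genes with a mean over the libraries of 10 or more entered limma 3.58.1 (mean-variance trend, robust) in R 4.3.3 as log2(normalized count + 1), without pairing, and fold changes on this scale are understated for low genes. Recovered reads were also tested with DESeq2 1.42.0, edgeR 4.0.16 (quasi-likelihood) and limma-voom. Other alternatives were TMM and upper quartile scaling, other filters and pseudocounts, removal of a loess trend on transcript length (span 0.5), a replicate block and the loss of each library. The tests were checked on simulated data. Values after ± are SDs unless SE is stated, and n = 4.

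Symbols were matched to GENCODE vM1 on mm9 (16659 directly and 1279 by a synonym, 93.4%), which gave lengths for 14046 tested genes. Members and lists were chosen with earlier results of these data known. Named genes are the members, called and the 2 most abundant genes of each partner list, the 3 nearest profiles of each called member, and Mbd2, with a few further genes (Cntnap3, Ptprz1, Ptprg, Tnc, Aplp2, Camk2a, Plekhh3 and Ccr10) that were chosen after their values were seen. No library repeated another, since 2 libraries of 1 genotype differed by at least 2.07 and at most 16.2 times the variance of counting. The start region of Cntn4 is not reported here.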

Additional observations from a re-analysis of the deposited data

How the results depend on the processing

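Cntn4, Cntn6 and Cntnap2 were called lower in limma and in all 11 alternatives that kept every library, and after the loss of each library in turn. Cntn2 and Cntnap1 were each called in 10 of the 11 and after the loss of 5 and 3 of the 8 libraries. The number of members called lower, 5 with all libraries, was 3 with the length trend removed, where the smooth correction by construction changes genes by their length, and 3 to 6 when 1 library was left out: 3 without wild-type replicate 1, wild-type replicate 3 or Mbd2-/- replicate 1 (5.99%, 6.07% and 6.35% of tested genes called lower), and 6 without Mbd2-/- replicate 4 (17.7%). Members called higher numbered 0 in limma and in every alternative. Partner genes called lower were 14, and 8 with the length trend removed, and partner genes called higher were 3, and 5 with the length trend removed. The cause was not tested. Over all genes, the calls numbered 3185, and 2063 with the length trend removed, and 2073 to 5156 when 1 library was left out, the most without Mbd2-/- replicate 4 and the fewest without wild-type replicate 3. Upper quartile scaling split the calls into 1640 lower and 1613 higher, where 1450 and 1735 were called with the deposited scaling. The log2 fold change of Cntn5 ran from -0.20 to 0.04 over the libraries left out and was positive without Mbd2-/- replicate 3 only (0.036, adjusted p = 0.84). Mbd2 was called in all 11 alternatives and after the loss of 5 of the 8 libraries.

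The sources used here do not say whether libraries of the same replicate number share litters or batches. Libraries of the same number deviated from their groups with correlations of -0.10, -0.06, 0.07 and 0.04. Libraries 3 and 4 of each group correlated best with their own number and libraries 1 and 2 did not. With a replicate block, 5 members were called lower and 0 higher, 3192 genes were called in all, and no member gained or lost a call. Cntn5 and Cntn6 rest on as few as 59 and 54 reads in a library, and at their mean reads counting alone gives coefficients of variation of 8.38% and 9.55%, which limits the precision of both.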
